A study of Mus musculus with 9 samples.

Results

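The 9 genes described here encode surface proteins through which a B cell senses antigen and sets how strongly it answers. They are Cd79a and Cd79b, the signaling chains of the B cell receptor; Cr2 and Cd81, coreceptor genes of the activating side; Cd22, Cd72, Fcgr2b and Siglecg, genes of inhibitory coreceptors; and Ms4a1, which encodes CD20. The members were chosen by name, with earlier results of these data known, so counts and medians over them are descriptions. They were matched to Ensembl IDs, and all 9 were found once each among the 48795 genes of the count files. All 9 were also among the 15546 genes that passed the filter on low counts. In mock cells each had at least 316 counts in every library.

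Cells came from spleens of 3 C57BL/6 mice carrying floxed yy1 alleles (yy1 f/f) and were follicular B cells selected on CD23. The tatcre group received TAT-CRE, a cell-permeable Cre recombinase, to delete yy1, and the mock group received mock treatment, with 3 RNA libraries each. All cells of both groups carried the floxed alleles, and culture was with LPS plus IL-4, for 48 hours with 20% serum by the sample text and 72 hours with 10% serum by the series text. The sample text lists TAT-CRE for every sample, and the titles were followed here. No group received Cre without floxed alleles, so exposure to Cre and loss of Yy1 cannot be told apart. Which mouse gave which library is not stated in the labels, and p-values thus measure only the spread among the libraries, which may be technical. The question the series asked of this comparison was what YY1, a zinc finger transcription factor, does in B cell activation.

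The antigen receptor is a membrane immunoglobulin bound to a heterodimer of CD79A and CD79B, whose cytoplasmic tails carry tyrosine motifs (ITAMs) that recruit the kinase SYK. Complement receptor 2 binds complement fragments on antigen and acts with the tetraspanin CD81 in a coreceptor complex that lowers the threshold for activation. CD22, CD72, the IgG receptor FcγRIIB and Siglec-G carry inhibitory tyrosine motifs (ITIMs) that recruit phosphatases such as SHP-1 and SHIP-1 and dampen the signal; CD22 and Siglec-G both bind sialic acid. CD20, a membrane protein with several transmembrane passes, is the target of therapeutic antibodies and is grouped here with neither class.

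Libraries held 22729187 to 28230727 gene counts. Yy1 itself had 24, 36 and 50 counts in tatcre cells, against 2655, 3018 and 2542 counts in mock cells. Levels below are CPM, the counts of a gene scaled to a common library size. Across all genes 16.3% were called lower and 10.8% higher in tatcre cells, 27.1% together, by edgeR's quasi-likelihood test at a Benjamini-Hochberg adjusted p under 0.05 over all tested genes. With upper-quartile factors the split was 2097 lower and 2229 higher, and with library size alone 1894 lower and 2614 higher, against 2536 lower and 1679 higher as reported. Over all genes the median log2 fold change was 0.13 with library size alone, against 0.02 as reported. In mock 3, 20420 genes had a count, fewer than the 21875 to 23197 of the other libraries. Markers of T cells and of myeloid cells were near 0. The 7 T cell markers summed to 1.32 to 2.01 CPM in tatcre and 1.36 to 2.04 CPM in mock libraries. The 7 myeloid markers summed to 1.16 to 2.30 CPM in tatcre and 0.468 to 1.25 CPM in mock libraries. Cd14, S100a8 and S100a9 were at 0 counts throughout. Sums of the 4 NK cell and 4 red cell markers stayed at or under 0.511 CPM in every library. The 5 plasma cell markers summed to 306.6 to 357.9 CPM in tatcre and 352.1 to 408.0 CPM in mock libraries, with Jchain called lower. The 5 dendritic cell markers summed to 105.7 to 112.8 CPM in tatcre and 119.6 to 134.4 CPM in mock libraries. Nearly all of that was Flt3, which was called lower (edgeR adjusted p = 0.0486). Fcer2a, the gene of the CD23 used for selection, was at 752.6 ± 28.2 CPM in tatcre and 1152 ± 18.1 CPM in mock cells (SD, n = 3 each) and was called lower (1.53-fold, edgeR adjusted p = 8.08e-05). The 5 follicular B cell markers, Fcer2a, Ms4a1, Cd79a, Cd79b and Cd22, were detected in every library and summed to 2746 to 2854 CPM in tatcre and 3385 to 3565 CPM in mock libraries, with 2 called lower and 3 not called; 4 of them are members of the set described here.

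Of the 9 genes 4 fell in tatcre cells (Cr2, Cd72, Cd22 and Fcgr2b), 1 rose (Siglecg) and 4 were not called (Cd79a, Cd79b, Cd81 and Ms4a1). Over all tested genes 16.3% were called lower and 10.8% higher. Among those whose mean log2 CPM was 6 or more, which holds for 7 of these 9 genes, 25.4% were called lower and 10.3% higher. Of those 7 members, Cd22 and Fcgr2b were called lower and Siglecg higher. Cr2 and Cd72 lie under that level, at mean log2 CPM of 2.93 and 5.64. The median log2 fold change of the 9 genes was -0.32, against 0.02 over all tested genes. No median was taken over genes of like level, among which falls were more frequent. The values of tatcre and mock libraries did not overlap for 6 of the 9, against 44.0% of all tested genes. In these bulk samples fewer cells of a type and less RNA per cell cannot be told apart.

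**Figure D1:**
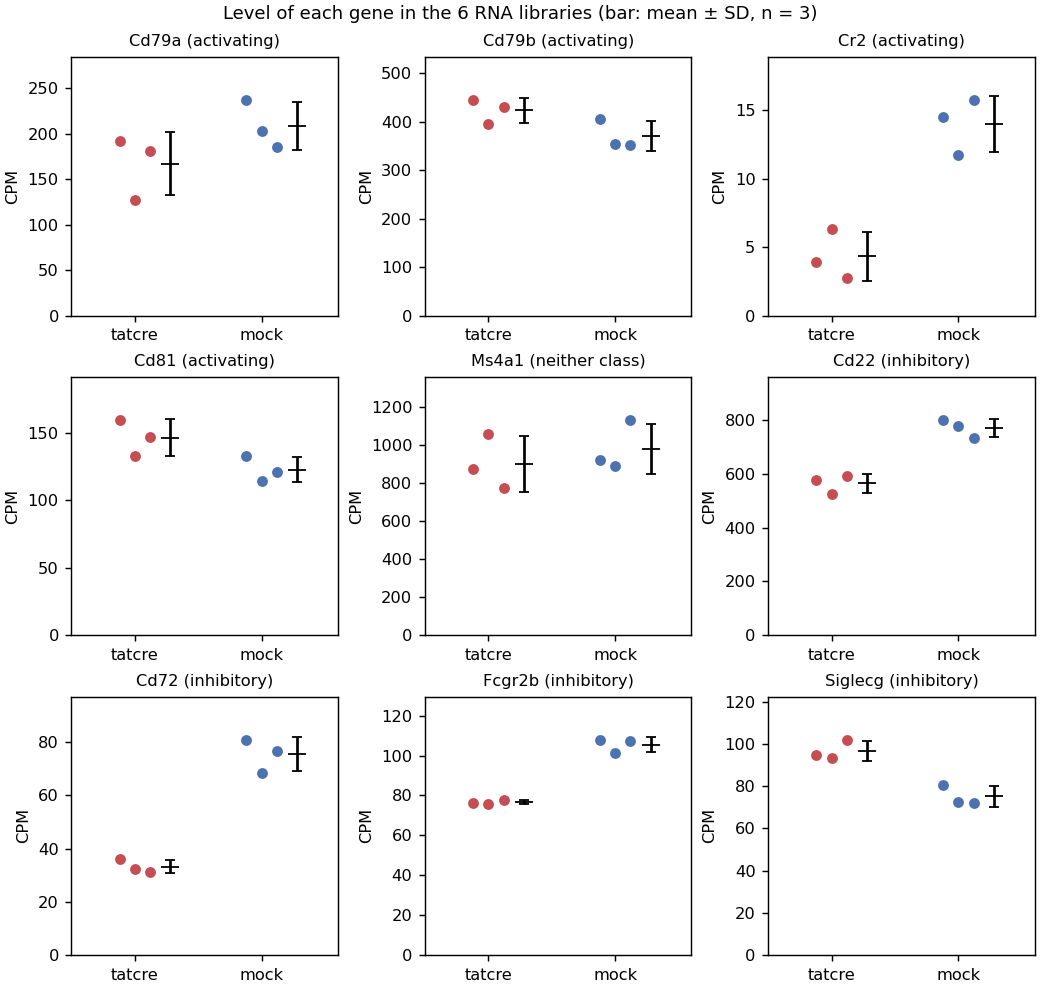
Level of each gene in CPM on a linear axis from 0, for the 3 tatcre libraries (left) and 3 mock libraries (right) of each panel, with the mean and SD beside the points. Cr2 and Cd72 show the widest separation, Siglecg lies higher in tatcre cells, and the points of Cd79a, Cd79b and Ms4a1 overlap between groups.

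Promoter sequences are shown first for the 2 genes with the largest falls, for Cd22, whose window alone held a motif match, and for Siglecg, the 1 gene that rose, because YY1 is a DNA-binding factor. RefSeq promoters on GRCm38.p6 were held for 7 of the 9 genes, each with 250 bases before and 50 after the start of transcription; those of Cd79b and Ms4a1 are named only. The windows are Cr2, chr1:195176670-195176969 on the minus strand; Cd72, chr4:43454577-43454876, minus; Cd22, chr7:30878979-30879278, minus; and the first of the overlapping Siglecg windows, chr7:43407989-43408288, plus. The start each window is built on lies inside the annotated span of its gene, 161 bases from the 5′ end for Cr2, 476 for Cd72, 1314 for Cd22 and 47 for Siglecg, so starts farther out are not covered for Cd72 and Cd22. Capitals mark matches to any of 4 motifs searched on both strands.
Cr2: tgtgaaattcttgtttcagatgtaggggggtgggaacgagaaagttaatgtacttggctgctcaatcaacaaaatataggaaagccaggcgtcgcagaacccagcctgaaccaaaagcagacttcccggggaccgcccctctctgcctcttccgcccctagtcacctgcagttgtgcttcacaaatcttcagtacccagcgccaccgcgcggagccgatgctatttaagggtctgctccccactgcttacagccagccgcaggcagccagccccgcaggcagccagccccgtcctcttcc
Cd72: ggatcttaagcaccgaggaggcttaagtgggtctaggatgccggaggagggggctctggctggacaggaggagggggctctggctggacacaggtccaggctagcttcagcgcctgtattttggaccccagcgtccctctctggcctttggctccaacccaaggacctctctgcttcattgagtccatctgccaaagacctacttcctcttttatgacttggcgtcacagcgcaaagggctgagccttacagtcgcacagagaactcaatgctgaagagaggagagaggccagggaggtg
Cd22: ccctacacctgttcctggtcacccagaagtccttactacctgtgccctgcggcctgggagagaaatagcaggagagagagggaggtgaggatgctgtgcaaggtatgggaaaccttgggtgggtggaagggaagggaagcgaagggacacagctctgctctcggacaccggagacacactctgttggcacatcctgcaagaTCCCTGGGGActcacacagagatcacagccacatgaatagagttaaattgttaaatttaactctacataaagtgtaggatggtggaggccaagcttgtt
Siglecg: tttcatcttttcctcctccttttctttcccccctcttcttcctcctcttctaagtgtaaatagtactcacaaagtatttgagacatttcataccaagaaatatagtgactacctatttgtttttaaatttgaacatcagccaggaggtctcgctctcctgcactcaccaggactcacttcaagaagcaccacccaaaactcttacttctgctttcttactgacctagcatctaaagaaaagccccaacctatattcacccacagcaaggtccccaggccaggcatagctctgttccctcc

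The motifs were a YY1 motif, GCCATNTT; its core, CCATNTT, which lies within it; the octamer of B cell promoters, ATTTGCAT; and a motif of the B cell factor EBF, TCCCNNGGG. None of the members' windows held either YY1 form or the octamer, which are present in 6.05%, 16.1% and 1.74% of 32851 RefSeq promoter windows of the same length. The EBF motif occurred in the Cd22 window alone, as overlapping matches on both strands that begin at position -49 from the start of transcription used for that window, and 6.56% of all windows hold it. The G and C content was 57.3% for Cr2, 57.7% for Cd72, 52.3% for Cd22 and 43.7% for Siglecg, against a median of 52.7% over all windows. A match describes letters only, and these windows say nothing of sites elsewhere.

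The signaling chains of the receptor came first among the activating genes. Cd79a (ENSMUSG00000003379, chromosome 7, 24897497 to 24901858 in GRCm38), which encodes Ig-alpha, was at 192.6, 127.5 and 181.3 CPM in tatcre cells, against 237.1, 203.0 and 185.0 CPM in mock cells. The highest tatcre library lay above the lowest mock library, so the groups overlapped, and tatcre 2 stood below the rest. Its log2 fold change was -0.32 (SE 0.14, edgeR adjusted p = 0.127, not called). Cd79b (ENSMUSG00000040592, chromosome 11, 106311341 to 106314562), which encodes Ig-beta, was at 444.4, 395.0 and 431.0 CPM in tatcre cells, against 405.8, 353.3 and 352.8 CPM in mock cells. The groups overlapped by 1 library on each side, and the difference was not called (log2 fold change 0.19, SE 0.08, edgeR adjusted p = 0.111). Upper-quartile factors made it a call (higher, edgeR adjusted p = 0.0393), as did library size alone (edgeR adjusted p = 0.0256) and leaving out mock 1 (edgeR adjusted p = 0.0419). Cd79a was called lower without the low-count filter (edgeR adjusted p = 0.00147).

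The estimates of the paired chains had opposite signs. The ratio of Cd79b to Cd79a counts within a library does not depend on how libraries are scaled. It was 2.31, 3.10 and 2.38 in tatcre libraries, against 1.71, 1.74 and 1.91 in mock libraries. Every tatcre library lay above every mock library, with a mean ratio of 2.59 ± 0.438 in tatcre and 1.79 ± 0.106 in mock cells (SD, n = 3 each), and the highest value was that of tatcre 2. This ratio and those that follow were chosen after the values had been seen and are descriptions without a test.

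Of the activating coreceptor genes, Cr2 fell and Cd81 was not called. Cr2 (ENSMUSG00000026616, chromosome 1, 195136811 to 195176880), from which the mouse makes complement receptors 1 and 2 by splicing, had 95, 151 and 69 counts in tatcre cells, against 385, 316 and 370 counts in mock cells. As levels these were 3.89, 6.31 and 2.77 CPM in tatcre and 14.5, 11.7 and 15.8 CPM in mock cells. All tatcre libraries lay below all mock libraries, and tatcre 2 was the highest of its group. The fall was 3.24-fold (log2 fold change -1.70, SE 0.25, edgeR adjusted p = 0.000616), and 203 of the 15546 tested genes had a lower log2 fold change. Counts per gene do not separate the spliced forms. Cr2 RNA is also high in marginal zone B cells, whose 5 markers (Cd1d1, S1pr3, Dtx1, Myof and Cd9) summed to 62.9 to 69.2 CPM in tatcre and 65.9 to 80.0 CPM in mock libraries. Of these 5 markers Dtx1 fell and the other 4 were not called; their part in the fall of Cr2 was not tested. Among 3 markers of follicular dendritic cells, which also carry the receptor, Cxcl13 was at 0 counts in all libraries and Clu was under 1 CPM, and Mfge8 was not called.

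Cd81 (ENSMUSG00000037706, chromosome 7, 143052750 to 143067930), the tetraspanin of the coreceptor complex, was at 159.7, 132.8 and 147.1 CPM in tatcre cells, against 132.7, 114.5 and 120.9 CPM in mock cells. The lowest tatcre library lay just above the highest mock library. A noncoding gene whose span overlaps it by 937 bases, R74862, was at 1.16 CPM in mock cells. The difference missed the threshold as reported (log2 fold change 0.26, SE 0.09, edgeR adjusted p = 0.0611). It was called higher in 6 of 12 alternatives, over which the adjusted p ran from 0.016 to 0.272, among them DESeq2 (adjusted p = 0.0357, a test that called 27.3% of its genes), without mock 1 (edgeR adjusted p = 0.0433) and without tatcre 2 (edgeR adjusted p = 0.0225). There were 41.0, 21.1 and 53.2 Cd81 counts per Cr2 count in tatcre libraries, against 9.12, 9.78 and 7.67 in mock libraries. These ratios did not overlap between groups, which follows from the levels of both genes, and Cr2 counts in tatcre libraries were low.

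All 4 inhibitory genes were called, 3 of them lower and 1 higher, against 16.3% lower and 10.8% higher over all tested genes. Cd72 (ENSMUSG00000028459, chromosome 4, 43447724 to 43455102), a C-type lectin that recruits SHP-1 in B cells, moved most among them, at 36.0, 32.2 and 31.4 CPM in tatcre cells, against 81.0, 68.4 and 76.9 CPM in mock cells. All tatcre libraries lay well below all mock libraries, a 2.27-fold fall (log2 fold change -1.18, SE 0.10, edgeR adjusted p = 1.33e-05). Of all tested genes 477 had a lower log2 fold change. The gene's span overlaps that of Tesk1 by 352 bases, and Tesk1 was at 3.85 CPM in mock cells and was not called (edgeR adjusted p = 0.775).

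Cd22 (ENSMUSG00000030577, chromosome 7, 30865404 to 30880342), a sialic acid-binding receptor of B cells, was at 578.2, 523.2 and 591.2 CPM in tatcre cells, against 799.8, 778.8 and 732.7 CPM in mock cells. The groups did not overlap, and the fall was 1.37-fold (log2 fold change -0.45, SE 0.07, edgeR adjusted p = 0.00137). Fcgr2b (ENSMUSG00000026656, chromosome 1, 170960558 to 170976071), the inhibitory receptor for the Fc part of IgG, was at 76.4, 75.7 and 77.7 CPM in tatcre cells, against 108.0, 101.2 and 107.4 CPM in mock cells. Its tatcre libraries were the most alike of any member's, and its fall of 1.38-fold was close to that of Cd22 (log2 fold change -0.46, SE 0.07, edgeR adjusted p = 0.00113). Fcgr2b shares much sequence with the activating receptor gene Fcgr3, which had 16, 13 and 13 counts in tatcre and 25, 19 and 8 counts in mock cells. Fcgr3 was not called (edgeR adjusted p = 0.789), nor was Fcgr4 (edgeR adjusted p = 0.309), and Fcgr1 and Fcer1g, genes of myeloid Fc receptors, had too few counts to test.

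Siglecg (ENSMUSG00000030468, chromosome 7, 43408192 to 43418349), the other sialic acid-binding inhibitor, rose. It was at 94.9, 93.4 and 102.2 CPM in tatcre cells, against 80.8, 72.7 and 72.1 CPM in mock cells, so that all tatcre libraries lay above all mock libraries. The rise was 1.29-fold (log2 fold change 0.36, SE 0.08, edgeR adjusted p = 0.00784), and 3909 of the tested genes had a higher log2 fold change, so its size was not unusual among all genes. There were 6.09, 5.60 and 5.79 Cd22 counts per Siglecg count in tatcre libraries, against 9.90, 10.7 and 10.2 in mock libraries. For Cd72 the ratio to Siglecg was 0.380, 0.345 and 0.307 in tatcre libraries, against 1.00, 0.941 and 1.07 in mock libraries. Neither ratio depends on the scaling of libraries, and neither overlapped between groups. That separation follows from the levels, with Cd22 and Cd72 lower and Siglecg higher in every tatcre library, and is not separate support.

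**Figure D2:**
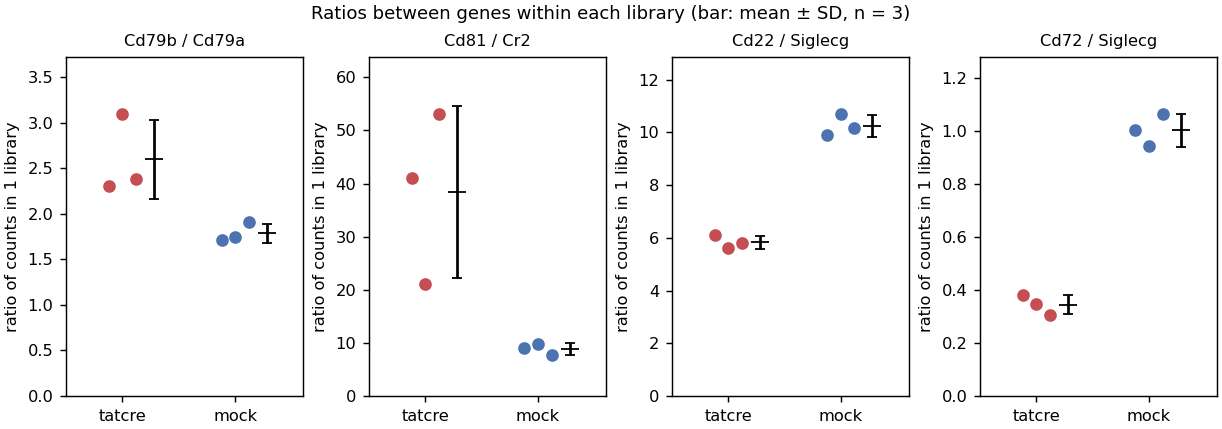
Ratio of the counts of 2 genes within each library, on linear axes from 0, for the 3 tatcre (left) and 3 mock libraries (right) of each panel, with the mean and SD. In all 4 panels the groups are apart: Cd79b per Cd79a and Cd81 per Cr2 are higher in tatcre cells, and Cd22 and Cd72 per Siglecg are lower. Except for Cd79b per Cd79a, this follows from levels of the single genes that were already apart.

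Ms4a1 (ENSMUSG00000024673, chromosome 19, 11249679 to 11266149), the gene of CD20, was at 871.9, 1058.6 and 771.7 CPM in tatcre cells, against 920.1, 887.9 and 1132.0 CPM in mock cells. The groups overlapped widely, with 1 high library in each, and the gene was not called (log2 fold change -0.12, SE 0.12, edgeR adjusted p = 0.484). The span of a long noncoding RNA gene, 4930526L06Rik, covers all of Ms4a1, and how the counting divided reads of the pair was not stated.

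**Figure D3:**
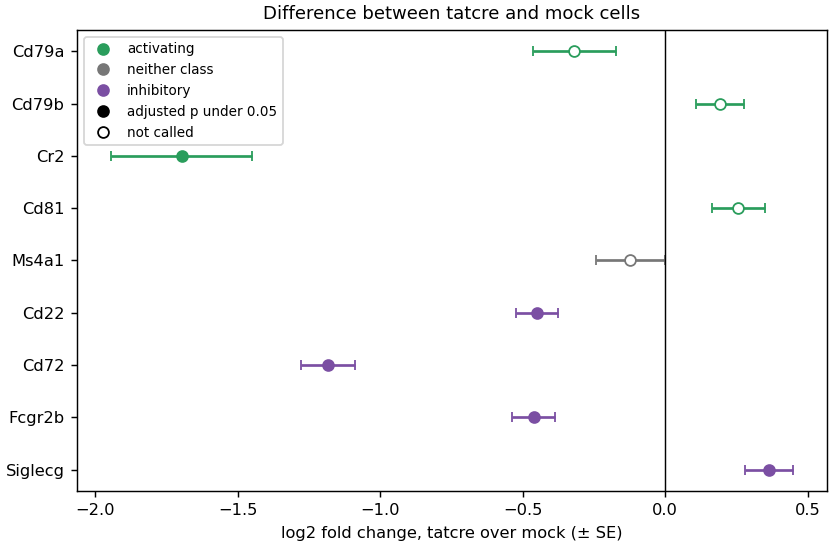
Log2 fold change of tatcre over mock for each gene with its SE, coloured by class and filled where the edgeR adjusted p was under 0.05. Both the activating and the inhibitory class hold genes on either side of 0, and the lowest values are those of Cr2 at -1.70 and Cd72 at -1.18.

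Set against each other as classes, activating and inhibitory genes had close mean differences. The mean log2 fold change was -0.39 for the 4 activating genes and -0.43 for the 4 inhibitory genes, a difference of -0.04 (inhibitory minus activating). In single libraries the mean log2 CPM of inhibitory minus activating genes was 0.37, 0.37 and 0.54 in tatcre cells, against 0.40, 0.50 and 0.45 in mock cells, and the groups overlapped. Their medians differed more, at -0.06 for the activating and -0.46 for the inhibitory genes, because Cr2 alone carries the activating mean. Without Cr2, a choice made after its value was seen, the difference was -0.48. Cd72, the lowest inhibitory gene at -1.18, was kept there, so only the activating class lost its largest fall. The library values were then -1.11, -0.85 and -1.03 in tatcre cells, against -0.60, -0.52 and -0.46 in mock cells, with no overlap. Without tatcre 2 the difference over all 8 genes was 0.01, of the opposite sign. These class values are descriptions and were given no test. The 9 genes together took 0.254, 0.258 and 0.238% of gene counts in tatcre libraries, against 0.275, 0.248 and 0.264% in mock libraries, which overlap.

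The rest of the receptor at the surface is membrane immunoglobulin, whose constant genes also yield secreted antibody. Heavy chain genes of IgG, IgE and IgA were not in the list used here. Of 6 constant genes of IgM, IgD and the light chains, Iglc1 fell 1.52-fold, to 47.6 ± 1.16 CPM in tatcre cells against 72.3 ± 7.85 CPM in mock cells (SD, n = 3 each, edgeR adjusted p = 0.000901), though it closely resembles other lambda genes. The other 5 were not called. Among them, Ighm averaged 7996 ± 908 CPM in tatcre and 6755 ± 684 CPM in mock cells (SD, n = 3 each). In 6 of the 12 alternatives 1 gene of this list was called higher: upper-quartile factors, library size alone, no low-count filter, the replicate number as a block, without mock 1 and without tatcre 2. The number called lower was 2 with no low-count filter and without tatcre 1. Of all tested genes 16.3% were called lower and 10.8% higher as reported.

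Genes of further inhibitory receptors moved in both directions, as the members did. Of 11 found in the files, 4 fell, 1 rose, 5 were not called and 1 was not tested. Over all tested genes 16.3% were called lower and 10.8% higher. Cd300lf, a receptor for phospholipids, fell 1.72-fold, with 6.64 ± 0.362 CPM in tatcre and 11.4 ± 0.722 CPM in mock cells (SD, n = 3 each, edgeR adjusted p = 0.00118). Btla, an attenuator that binds HVEM, fell 1.47-fold, with 252.0 ± 17.4 CPM in tatcre and 371.3 ± 37.5 CPM in mock cells (SD, n = 3 each, edgeR adjusted p = 0.00123). Without mock 2 the number called lower was 2. The riser, Pirb, which encodes an inhibitory receptor for MHC class I, is named because it was the single one; it was at 8.16, 10.6 and 9.26 CPM in tatcre cells, against 7.07, 5.60 and 5.58 CPM in mock cells (edgeR adjusted p = 0.0148). Its call was lost without mock 2 (edgeR adjusted p = 0.0704) and without mock 3 (edgeR adjusted p = 0.0568).

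Among 12 genes of other tetraspanins and of the CD20 family, 3 fell, 7 were not called and 2 were not tested. The share called lower over all tested genes was 16.3%. Ms4a4c, a relative of Ms4a1, fell 2.92-fold, with 2.95 ± 0.520 CPM in tatcre and 8.64 ± 0.688 CPM in mock cells (SD, n = 3 each, edgeR adjusted p = 0.000133). Cd82, a tetraspanin, fell 1.35-fold, with 93.7 ± 8.69 CPM in tatcre and 126.6 ± 4.62 CPM in mock cells (SD, n = 3 each, edgeR adjusted p = 0.00407). The third fall was that of the tetraspanin gene Tspan32 (1.26-fold, edgeR adjusted p = 0.0311). The tetraspanin genes Cd37, Cd53 and Cd9 were not called, and their groups overlapped, unlike those of Cd81. Without tatcre 2 the number called lower was 5.

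Downstream of the inhibitory motifs, 3 of 10 effector genes fell and 7 were not called. The share called lower was 16.3% over all tested genes and 25.4% over those with mean log2 CPM of 6 or more. Ptpn6, which encodes SHP-1, the phosphatase that CD22, CD72 and Siglec-G recruit, fell 1.32-fold, with 307.9 ± 21.2 CPM in tatcre and 407.7 ± 17.5 CPM in mock cells (SD, n = 3 each, edgeR adjusted p = 0.00307). The adaptor gene Dok2 fell 2.82-fold, with 2.53 ± 0.353 CPM in tatcre and 7.11 ± 1.51 CPM in mock cells (SD, n = 3 each, edgeR adjusted p = 0.000546). Inpp5d, which encodes SHIP-1, the phosphatase FcγRIIB recruits, was not called at 146.2 CPM in tatcre and 152.3 CPM in mock cells, nor was Lyn, the kinase that phosphorylates these motifs. In 5 of the 12 alternatives 1 gene of this list was called higher: RLE factors, upper-quartile factors, library size alone, without mock 1 and without tatcre 2.

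Downstream of the activating motifs, 5 of 10 effector genes fell and 5 were not called. The share called lower was 16.3% over all tested genes and 25.4% over those with mean log2 CPM of 6 or more. Syk, the kinase that docks on CD79A and CD79B, was at 84.7, 71.3 and 88.1 CPM in tatcre cells, against 142.7, 157.0 and 128.8 CPM in mock cells. All tatcre libraries lay below all mock libraries, a 1.76-fold fall (edgeR adjusted p = 0.000265). Blnk, the adaptor SYK phosphorylates, fell 1.39-fold, with 166.1 ± 16.5 CPM in tatcre and 230.7 ± 4.06 CPM in mock cells (SD, n = 3 each, edgeR adjusted p = 0.0022). The number of falls was 3 with library size alone, with the replicate number as a block, without mock 2, without tatcre 1 and without tatcre 2.

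Of 11 genes for ligands of these coreceptors, for making those ligands or for complement control, 4 fell and 6 were not called. The other 1, the complement gene C3, was not tested. The falls include Cr1l, which encodes a complement regulator and not a ligand (1.32-fold, edgeR adjusted p = 0.00653). Over all tested genes 16.3% were called lower. St6gal1, which makes the sialic acid linkage CD22 prefers, fell 1.29-fold, with 401.1 ± 26.0 CPM in tatcre and 518.2 ± 32.9 CPM in mock cells (SD, n = 3 each, edgeR adjusted p = 0.00593). Sema4d, whose product CD100 binds CD72, fell 1.48-fold, with 65.2 ± 8.27 CPM in tatcre and 96.6 ± 7.85 CPM in mock cells (SD, n = 3 each, edgeR adjusted p = 0.00259).

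Of 18 other B cell surface genes 11 fell, 6 were not called and 1 was not tested. The number of falls was 8 with library size alone and 12 without the low-count filter. The share called lower was 16.3% over all tested genes and 25.4% over those with mean log2 CPM of 6 or more. Cd180, a relative of the LPS receptor, fell 2.12-fold, with 73.2, 68.5 and 82.2 CPM in tatcre cells, against 156.5, 170.1 and 149.0 CPM in mock cells (edgeR adjusted p = 1.86e-05). Cd24a fell 1.66-fold, with 214.0 ± 8.25 CPM in tatcre and 356.0 ± 10.1 CPM in mock cells (SD, n = 3 each, edgeR adjusted p = 4.45e-05). The medians of log2 fold changes were -0.42 for this list, -0.43 for the further inhibitory receptors, -0.21 for the activating and -0.08 for the inhibitory effectors, against -0.32 for the 9 genes.

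**Figure D4:**
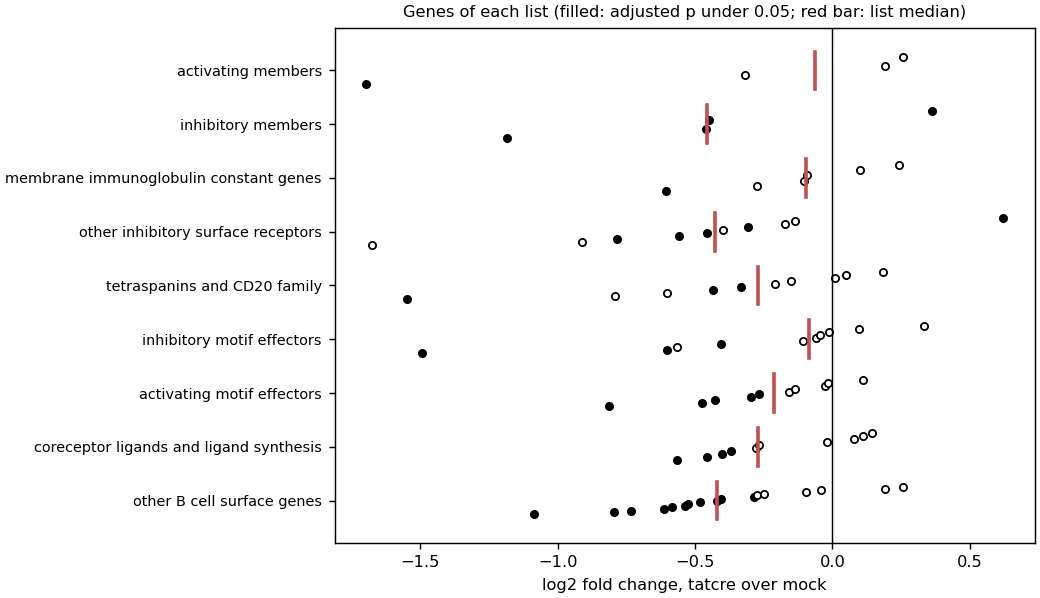
Log2 fold change of tatcre over mock for the tested genes of each list except the Fc gamma receptors, 1 circle a gene, filled where the edgeR adjusted p was under 0.05, with the list median as a red bar. The 2 top rows are the activating and inhibitory genes, with medians of -0.06 and -0.46, and every median lies below 0.

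For each of the 9 genes the nearest profile was sought among 9067 other genes, as the smallest root mean square difference of mean-centred log2 CPM over the 6 libraries. The nearest to Cr2 was Dbt, a subunit of the branched-chain keto acid dehydrogenase (difference 0.13, log2 fold change -1.72), a wider gap than any other member had. Nearest to Cd22 was Sept1, a septin (0.02), and for Fcgr2b Gnptab, a lysosomal sorting transferase (0.02). For Siglecg it was Osbpl2, an oxysterol-binding protein relative (0.01). Those of Cd79a, Cd79b, Cd81 and Ms4a1 were Mcrip1, Babam2, Ctsb and Cops2, at differences of 0.05, 0.03, 0.03 and 0.03.

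**Figure D5:**
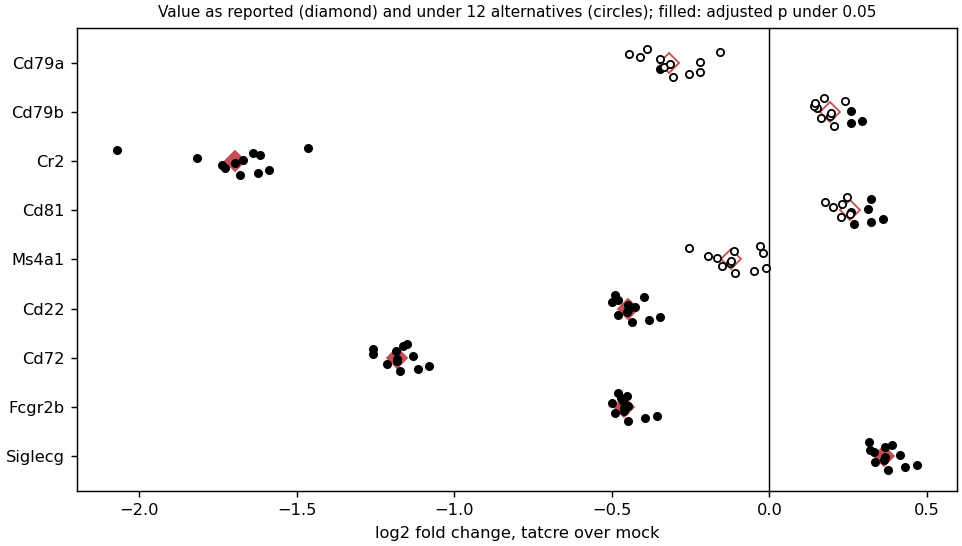
Log2 fold change of each gene as reported (diamond) and under 12 alternatives of scaling, filter, test, block or a left-out library (circles), filled where the adjusted p was under 0.05. All circles of Cr2, Cd72, Cd22, Fcgr2b and Siglecg are filled and on 1 side of 0. Those of Cd81 and Cd79b are filled in part, and 1 of Cd79a is filled.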

How the data were processed

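RNA was measured in 3 tatcre and 3 mock libraries, grouped by sample title. The authors deposited raw read counts per Ensembl gene; Trimmomatic, TopHat2, SAMtools, HTSeq and build mm10 are named, without versions, per the submitters' processing notes. Per the labels' protocols the kit was stranded; for the counting, strand setting and annotation were not stated, so reads of overlapping genes or near-identical copies may be assigned otherwise than a symbol implies. The 3 YY1 ChIP peak lists were not used, because peaks lie past the last RefSeq genes of several GRCm38 chromosomes.

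Of 48795 gene IDs 48349 matched a symbol. Genes passed edgeR's filterByExpr (minimum count 10, minimum total 15), were scaled by TMM and tested with the quasi-likelihood test (edgeR 4.0.16, R 4.3.3; biological coefficient of variation 0.129). CPM use TMM-scaled library sizes, so levels of different genes are not per length and were not ranked. Gene positions are those of RefSeq on GRCm38. The procedure was tested on simulated data with the same spread for every gene and larger changes than most members had. That test therefore does not cover small changes such as theirs. No 2 libraries agreed within sampling noise (smallest chi-square per degree of freedom 7.50). Alternatives were RLE, upper-quartile and no scaling factors, no filter, DESeq2 1.42.0, a replicate block and leaving out each library. Members, lists and tests were chosen with earlier results of these data known. Named genes are the members, Yy1, the 2 called genes of smallest adjusted p in each list and the nearest profile of each member; others named were chosen after their values were seen. The listed gene Lilrb4a was not analysed here, and the nearest profile of Cd72 is not reported here.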

Additional observations from a re-analysis of the deposited data

How the results depend on the processing

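Cr2, Cd72, Cd22, Fcgr2b and Siglecg kept their direction and call under all 12 alternatives, with log2 fold changes from -2.07 to -1.46, -1.26 to -1.08, -0.50 to -0.35, -0.50 to -0.36 and 0.32 to 0.47. Ms4a1 was called in none of the 12, with adjusted p from 0.118 to 0.951. The number of the 9 genes called higher was 1 as reported, 2 with RLE factors and with DESeq2, 3 with upper-quartile factors and with library size alone, and 1 to 3 when 1 library was left out (3 without mock 1, 2 without tatcre 2); the added genes were Cd81 and Cd79b, and the cause was not tested. The number called lower was 4, or 5 without the low-count filter. The inhibitory minus activating difference was -0.476 without Cr2 but with Cd72 kept, and ran from -0.09 to 0.01 when 1 library was left out. Over all genes 1679 were called higher, 2614 with library size alone, and 998 to 1681 when 1 library was left out (998 without mock 2, 1002 without tatcre 1).

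Replicate numbers did not clearly pair the libraries: deviations of same-numbered samples correlated at 0.06, -0.03 and 0.23, and number 2 did not correlate best with its own. With the number as a replicate block 2108 genes were called lower and 1313 higher, 4 of the 9 genes lower and 1 higher, and the inhibitory minus activating difference was -0.03. Of 24 other genes, those of the naming rule and Pirb, in 288 comparisons, 280 kept direction and call. Osbpl2 and Pirb lost their calls without mock 2 and without mock 3, Ctsb gained one in 3, and Cops2, not called, had a log2 fold change of -0.09 as reported and, reversed, 0.0241 with library size alone. At this depth 3 counts are 0.111 to 0.128 CPM, so Cr2 in tatcre cells, at 69 to 151 counts, is the least precise member.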
